A study of Mus musculus with 9 samples.

Results

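Chemerin is a secreted attractant of leukocytes encoded by Rarres2, and its row was at a modest level in all 9 libraries of lung fibroblasts, while Lrrc61, the gene that lies over its 3′ end on the other strand, was among the highest rows of the table. The genes described here are Rarres2, Lrrc61 and the chemerin receptors Cmklr1 and Ccrl2, which are 4 of the 55302 gene symbols listed. They were chosen by name, with the high Lrrc61 row and its position over Rarres2 already known from these libraries, so that their levels and their differences between the groups are given as a description without a test. Fibroblasts were sorted from lungs at an early metastatic stage, and bulk RNA-seq compared mice given PBS (n = 4, called saline or vehicle elsewhere in the labels) with mice given doxorubicin (DOX, n = 5), an anthracycline that damages DNA. Per the study's methods, all mice had carried mammary tumors that were removed surgically before treatment. Female mice of 8 weeks were injected with tumor cells in the mammary fat pad, tumors were removed after 2 weeks, 2 doses of 5 mg/kg began 4 days later and were given 5 days apart, and the lungs were collected 24 h after the final dose. The methods name BALB/c mice with 4T1 cells and C57BL/6 mice with EO771 cells, and the sources used here do not say which of them gave these libraries. The labels give the sort as CD45-, EpCAM- and PDGFRa+, to which the methods add CD31-. Each library is labelled as a biological replicate.

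Chemerin is made as an inactive precursor, prochemerin, and proteases of coagulation, fibrinolysis and inflammation activate it by cutting its C-terminal end. The active form binds CMKLR1, a receptor of macrophages, dendritic cells and natural killer cells that drives migration, while CCRL2 binds chemerin without signaling and presents it to neighboring cells. GPR1 is a further chemerin receptor. The gene is named for its response to retinoids, its protein has a cystatin fold, and fat tissue secretes it as an adipokine. Lrrc61 encodes a leucine-rich repeat protein that is not part of the chemerin system and enters here only by its position.

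The 3′ ends of Lrrc61 and Rarres2 overlap, which matters here because MARS-seq was used, a stranded method that sequences 1 short tag for a polyadenylated transcript, from close to its 3′ end. On mm10, Rarres2 spans chr6:48569696-48572789 on the minus strand and Lrrc61 spans chr6:48554796-48570722 on the plus strand, so that the gene spans share 1027 bases. The last exon of Lrrc61 (exon 3, chr6:48568137-48570722, 2586 bases) holds the whole coding sequence of the transcript Lrrc61-202 and 1701 bases of 3′UTR. Of the 731 bases of the protein-coding transcript Rarres2-201, 328 bases (44.9%) in 3 of its 6 exons lie within that Lrrc61 exon, and they include 204 of its 489 coding bases before the stop codon. In the other direction, a Rarres2 exon lies over the last base of Lrrc61 only in Rarres2-202, a transcript with a retained intron. The ends of both transcripts are shown, since they are the stretch a 3′ tag would come from. They are taken from the GENCODE M21 transcripts and written 5′ to 3′ on the strand of each gene. Capitals mark the polyadenylation signal AATAAA.
Rarres2 3′ end, chr6:48569708-48569737, minus strand: caactccaggctAATAAAattgctgagtct
Lrrc61 3′ end, chr6:48570690-48570719, plus strand: accctaagccaaAATAAAcctttcctatta
The signal ends 24 bases before the end of Rarres2-201 and 15 bases before the end of Lrrc61-202, so both genes have a signal of their own on their own strand. The sources used here do not give the strand setting of the authors' count. Which gene's transcripts each row counts can therefore not be told apart from the table.

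**Figure D1:**
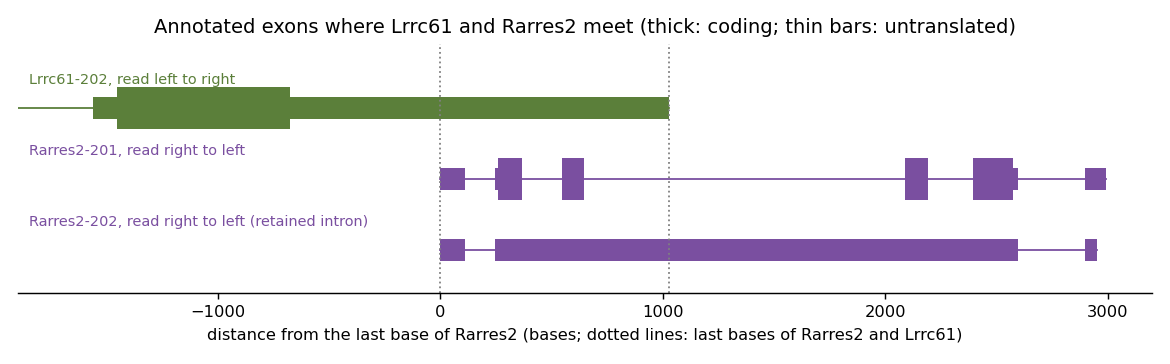
Annotated exons of Lrrc61-202, Rarres2-201 and Rarres2-202 by distance in bases from the last base of Rarres2, with coding parts as thick bars and untranslated parts as thin bars. Lrrc61 reads to the right and ends 1026 bases past the last base of Rarres2, over 3 exons of Rarres2-201, which reads to the left.

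Libraries held 497637 to 734114 reads in PBS and 432322 to 1285816 in DOX. The authors deposited normalized counts, reads scaled by the size factor of their library. All intervals on reads reflect counting error alone. PBS replicate 4 stood apart. Its 12 granulocyte markers summed to 1122 normalized counts against 28.0 to 37.9 in the other PBS libraries and 65.8 to 92.6 in DOX, its 10 pan-immune markers to 270 against 3.71 to 37.8 in the other 8 libraries, its 12 epithelial markers to 483 against 15.8 to 36.6 in the other PBS libraries and 44.5 to 179 in DOX, and its 12 fibroblast markers to 1467 against 2736 to 3109 in the other PBS libraries and 2016 to 2373 in DOX. With PBS replicate 4 left aside, the granulocyte and epithelial sums were thus higher in each DOX library than in each PBS library. The fibroblast sums were lower, and these differences were not tested. The granulocyte sum of PBS replicate 4 was mostly S100a8 (756), whereas the DOX sums were mostly Ly6g (49.7 to 84.4). These sums thus rested mainly on different genes and not on the 12 markers alike. Col1a1 was the largest part of the fibroblast sums, at 1795 ± 550 in PBS (SD, n = 4) and 1400 ± 239 in DOX (SD, n = 5). Of the 7 fibroblast markers at 10 or more normalized counts in at least 4 libraries, 4 had a higher and 3 a lower fitted mean in DOX (limma, all libraries kept). None of the granulocyte, pan-immune or fibroblast markers was at 0 in all libraries, and 1 of the epithelial markers was. DOX replicate 2 was the shallowest library, and 35.3% of its reads fell on the ribosomal RNA gene CT010467.1. That share was 5.74 to 9.34% in PBS and 7.91 to 35.3% in DOX, where 4 of 5 libraries lay above every PBS library. Pdgfra, the gene of the sort, was above 0 in all 9 libraries but low (0.810 to 11.99 normalized counts), whereas Ptprc, which encodes CD45, was at 0 in 5 libraries and Epcam at 0 in 6. Pecam1, which encodes CD31, was above 0 in all 9 libraries (3.00 to 10.5), with means of 5.12 in PBS and 4.56 in DOX, above those of Pdgfra (4.31 and 4.50).

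Rarres2 did not separate the groups. In PBS replicates 1 to 4 its normalized counts were 97.9, 120, 80.8 and 139. In DOX replicates 1 to 5 they were 112, 60.0, 118, 215 and 134. DOX replicate 4 lay above every PBS library and DOX replicate 2 below every PBS library, and the other 3 DOX libraries lay within the PBS range. The PBS group was at 110 ± 25.6 (SD, n = 4) and the DOX group at 128 ± 56.1 (SD, n = 5), which differ on the scale of log2(normalized count + 1) by 0.14 (standard error 0.34, 95% interval -0.59 to 0.87, limma). This fold is smaller than the spread among libraries of a group, and its sign turned (-0.08) without DOX replicate 4, while it was 0.26 without PBS replicate 4 and 0.50 without both that library and DOX replicate 2. PBS without replicate 4 was at 99.7 ± 19.8 (SD, n = 3). Rarres2 rested on 1265 reads in all and 31 to 288 a library. The exact 95% Poisson interval was 21.1 to 44.0 reads in DOX replicate 2 and 256 to 323 in DOX replicate 4. In a bulk sample, fewer cells that make a transcript and less of it per cell cannot be told apart.

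Lrrc61 ranked 6 by mean among the 17428 genes above 0 in any library, and which gene's transcripts this row counts is not known. Its normalized counts in PBS replicates 1 to 4 were 22984, 20721, 19880 and 12947. In DOX replicates 1 to 5 they were 18601, 18207, 20586, 26313 and 21300. PBS replicate 4 was the lowest library and DOX replicate 4 the highest, and the other 7 libraries lay close together, with both groups among them. PBS libraries averaged 19133 ± 4327 (SD, n = 4) and DOX libraries 21002 ± 3242 (SD, n = 5), and PBS without replicate 4 was at 21195 ± 1606 (SD, n = 3). The log2 difference was 0.15 (standard error 0.20, 95% interval -0.27 to 0.57), and without PBS replicate 4 it was -0.02. PBS replicate 4 is the library with the high granulocyte and epithelial sums and the low fibroblast sum given above, and the part of these in its Lrrc61 value was not tested. Lrrc61 took 2.18 to 3.97% of all reads of a library, 200781 reads in total, against 0.00717 to 0.0324% for Rarres2. Over all libraries the highest Lrrc61 value was 2.03 times the lowest, whereas for Rarres2 that ratio was 3.59.

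**Figure D2:**
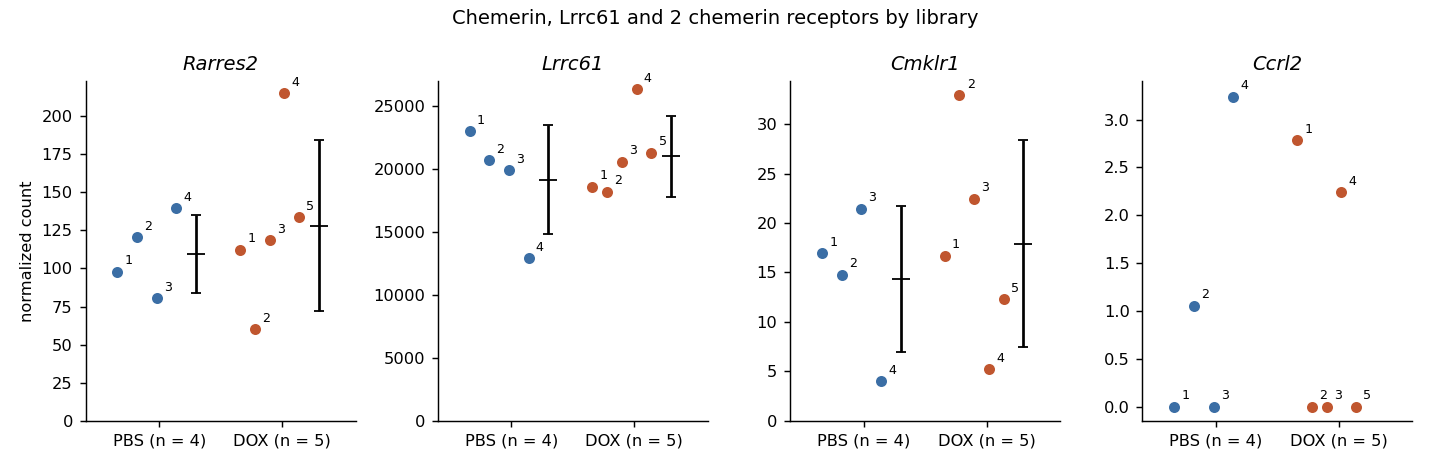
Normalized counts (linear axes) of Rarres2, Lrrc61, Cmklr1 and Ccrl2 in each library, with the replicate number beside each point and the group mean ± SD as a bar (not drawn for Ccrl2, which had 0 to 4 reads a library). The groups overlap in all 4 genes, and PBS replicate 4 is the lowest library for Lrrc61 and Cmklr1.

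No tested member passed the test, and neither did any other gene. Of the 2604 genes at 10 or more normalized counts in at least 4 libraries, 0 (0%) passed at a Benjamini-Hochberg adjusted p of 0.05 in limma, so that 0 of the 3 tested members is the background rate and says nothing particular about them. An unadjusted p under 0.05 was reached by 162 genes (6.22%), and edgeR, DESeq2 and limma-voom on the recovered reads also called 0. The groups did not overlap in 69 genes (2.65%), none of which was a member.

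The Lrrc61 row was larger than the Rarres2 row by a factor that itself varied. As tags come from near the 3′ end whatever the length of a transcript, rows of different genes can be set side by side without dividing by length. The ratios are of counts and not of transcripts, since the handling of molecular tags is not given. The ratio of Lrrc61 to Rarres2 was 235, 172, 246 and 92.9 in PBS replicates 1 to 4 and 166, 303, 174, 122 and 159 in DOX replicates 1 to 5. The lowest ratio was that of PBS replicate 4, where Lrrc61 was low, and the highest that of DOX replicate 2, where Rarres2 was low. The group means were 186 ± 70.3 (SD, n = 4) and 185 ± 69.1 (SD, n = 5), and the PBS mean without replicate 4 was 218 ± 39.8 (SD, n = 3). Rarres2 was thus 0.330 to 1.08% of Lrrc61, and adding both rows up left the Lrrc61 difference at 0.15. The rows did not follow each other steadily: over the 9 libraries Pearson's r of the log2 values was 0.25 (Spearman's rho 0.33), without PBS replicate 4 it was 0.78 (rho 0.71, n = 8), and without the 2 libraries farthest from the median of Rarres2, DOX replicates 4 and 2, it was -0.45 (rho -0.18, n = 7).

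Cmklr1, which encodes the signaling receptor, was measured thinly. Its normalized counts in PBS replicates 1 to 4 were 17.0, 14.8, 21.5 and 4.05. In DOX replicates 1 to 5 they were 16.7, 32.9, 22.5, 5.23 and 12.3. Each group held a library far below the others, PBS replicate 4 and DOX replicate 4, and DOX replicate 2 and, by a little, DOX replicate 3 lay above every PBS library. The means were 14.3 ± 7.39 (SD, n = 4) and 17.9 ± 10.5 (SD, n = 5), with a log2 difference of 0.29 (standard error 0.65, 95% interval -1.10 to 1.67). Without PBS replicate 4 the PBS mean was 17.7 ± 3.40 (SD, n = 3) and the difference -0.18, and without PBS replicate 4 and DOX replicate 2 together it was -0.44, so the sign rests on single libraries. These values came from 5 to 24 reads a library and 141 in all, and the exact Poisson interval of the 5 reads in PBS replicate 4 ran from 1.62 to 11.7, that of the 17 reads in DOX replicate 2 from 9.90 to 27.2. These libraries cannot tell a difference within the 95% interval from none.

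The library order of Cmklr1 was nearly the reverse of that of Rarres2. Rarres2 was highest in DOX replicate 4 and PBS replicate 4, the libraries with the lowest Cmklr1, and lowest in DOX replicate 2, the library with the highest Cmklr1. Pearson's r of the log2 values was -0.83 (Spearman's rho -0.88, n = 9), and without DOX replicates 4 and 2, which lay farthest from the median of Rarres2, it was -0.66 (rho -0.79, n = 7). Without PBS replicate 4 it was -0.93 (rho -0.86, n = 8). Both rows also ran with the depth of the library: rho with the number of reads was 0.80 for Rarres2 and -0.80 for Cmklr1, and the part of depth in their relation was not tested. This relation was noticed in the data among 3 pairs of members and is given with no p. Lrrc61 and Cmklr1 had an r of 0.18 and a rho of -0.20.

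**Figure D3:**
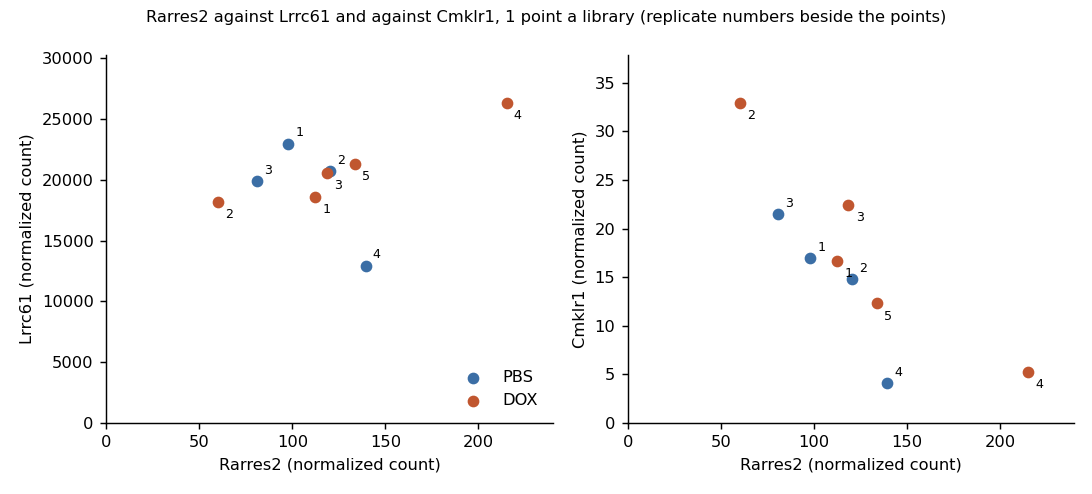
Normalized counts of Rarres2 against Lrrc61 (left) and against Cmklr1 (right), with 1 point for each library, colored by group, and the replicate number beside it. On the left PBS replicate 4 lies below the other libraries, and on the right Cmklr1 is high where Rarres2 is low (rho -0.88 over 9 libraries).

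The other 2 receptors were at the limit of detection. Ccrl2, the presenting receptor, had 0, 1, 0 and 4 reads in PBS replicates 1 to 4 and 3, 0, 0, 3 and 0 in DOX replicates 1 to 5, 11 in all, which are normalized counts of 0, 1.06, 0, 3.24, 2.78, 0, 0, 2.24 and 0. It was above 0 in 2 libraries of each group and did not pass the filter on low values. In the fit with no filter its log2 difference was -0.06 (standard error 0.82). Without PBS replicate 4, which held 4 of the 5 PBS reads, it was 0.38, and it ranged from -0.36 to 0.56 when libraries were left out or values rescaled. Where no read was found, a floor of 3 reads was used, which is a normalized count of 1.54 in DOX replicate 5 and 5.81 in DOX replicate 2. The exact 95% Poisson interval of 0 reads reaches further, to 3.69 reads. Gpr1 had 12 reads, all in DOX replicate 4 (8.96 normalized counts), and was at 0 in the other 8 libraries. A difference in Ccrl2 or Gpr1 between the groups was not detectable with so few reads. The strand setting of the count is not given for the receptor rows either, and its part in their low values was not tested. The 3 receptor genes have no exon of another gene over their last base on the other strand (Cmklr1 chr5:113612354-113650426, Ccrl2 chr9:111054486-111057519, Gpr1 chr1:63182691-63214543, all on the minus strand), which sets them apart from Rarres2.

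Macrophages and natural killer cells, named above for CMKLR1, were followed by their markers, and so were granulocytes. The 12 macrophage markers, 1 of them at 0 in all libraries, summed to 249 to 305 in PBS and 205 to 294 in DOX, but 189 to 293 of each sum was Csf1r, a row that itself lies over the 3′ end of Hmgxb3 on the other strand. Without Csf1r the other 11 summed to 3.17 to 60.0. The 12 markers of natural killer and other lymphoid cells, 4 of them at 0 in all libraries, summed to 3.17 to 15.1 in PBS and 9.73 to 19.4 in DOX. PBS replicate 4, with the highest granulocyte sum, had the lowest Cmklr1 and the highest Ccrl2, 4.05 and 3.24 normalized counts. The part of these cells in the receptor values was not tested.

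A row higher than that of the gene whose end it covers was common among the abundant rows. An exon over the last base of a gene on the other strand was annotated for 889 of the 2604 tested genes (34.1%), for 63 of the 100 highest genes and for 14 of the 20 highest. That share was 10.8% of the 17428 symbols above 0 in any library and 4.11% of all symbols listed. Lrrc61 and Rarres2 are a pair in which each has an exon over the last base of the other, Rarres2 only through its retained-intron transcript. There were 205 such pairs in which the higher gene had a mean of at least 100 normalized counts. Their median ratio of higher to lower was 24.6, and 32 of them, including 2 with the lower gene at 0, had a ratio above the 168 of the mean rows of Lrrc61 and Rarres2. Where only 1 gene covered the end of the other and the higher had a mean of at least 100, the covering gene was the higher in 137 of 221 pairs, and in 99 of 138 where both are protein coding. No test was made of these counts.

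The 4 other pairs with the highest covering rows also had a covering row far above the covered one. CT010467.1, the ribosomal RNA gene, was at a mean of 87977 over the 9 libraries and Gm42418, whose end it covers, at 554. Polr2b, which encodes a subunit of RNA polymerase II, was at 41571 and Igfbp7, a secreted protein of stromal and endothelial cells, at 93.1. Ccdc152 was at 16872 and Selenop, the secreted selenium carrier, at 28.8. Syn3, which encodes a synapsin of neurons, was at 12281 and Timp3, an inhibitor of matrix metalloproteinases, at 36.0. Lrrc61 at 20171 and Rarres2 at 120 came after Polr2b and Igfbp7 in this order. These pairs were named by the level of the covering row and not by function, a choice that favors high ratios, and their ratios ran from 159 to 586.

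**Figure D4:**
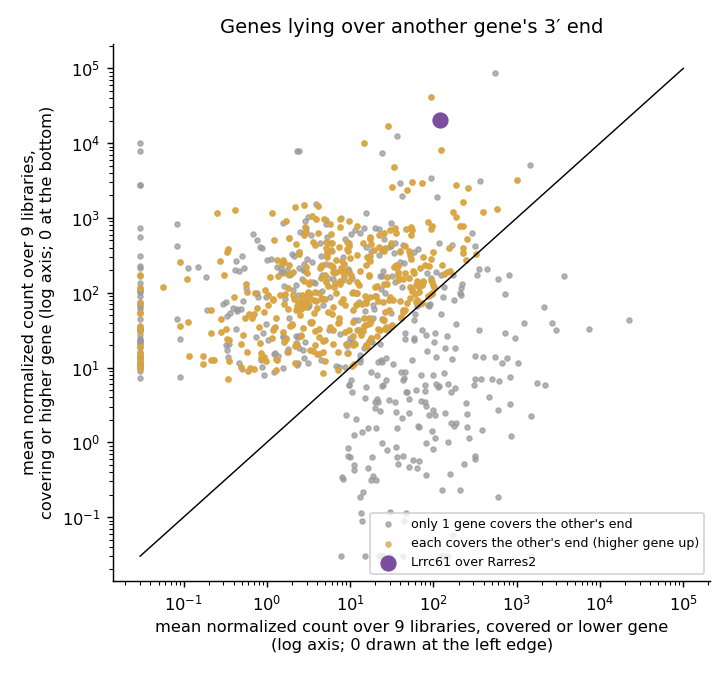
Mean normalized counts over 9 libraries (log axes) of the covering against the covered gene in grey, and of the higher against the lower gene in yellow where each covers the end of the other, for pairs with at least 1 tested gene. The line marks equal levels, and Lrrc61 over Rarres2 (20171 against 120) is among the highest pairs.

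The rest of the locus was near 0. Of the 15 other annotated genes within 100 kb, 11 were at 0 in all 9 libraries, among them the immune GTPase gene Gimap8 and the zinc finger gene Zfp775. Repin1, which encodes a zinc finger protein, was the highest at a mean of 8.05 normalized counts (1.54 to 21.1). Atp6v0e2, a subunit of the vacuolar proton pump, was at 0.260, Zfp862-ps at 0.140 and Sspo at 0.0569.

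Around the members, 163 genes of the chemerin system and its context were followed in 8 lists, of which 23 passed the filter. None of the 23 passed the test (0 called in limma, edgeR, DESeq2 and limma-voom), 12 had a higher and 11 a lower fitted mean in DOX, and 2 had an unadjusted p under 0.05. Their median log2 difference was 0.08, against -0.01 over all 2604 genes tested. The groups did not overlap in 1 of the 23, Cst3, against 2.65% of all genes tested. As background, proteases cut prochemerin, inhibitors hold the proteases in check, other attractants act beside chemerin, and retinoids induce its gene.

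Genes linked to the processing of chemerin, not all of which cut prochemerin itself, were mostly below the filter. Of these 21 genes 3 were tested and 11 were at 0 in all libraries. Plau, the urokinase that activates plasminogen, had 31.2 ± 9.61 normalized counts in the PBS group (SD, n = 4) and 33.9 ± 12.02 in the DOX group (SD, n = 5). Later pairs of values follow this order of groups, n and error. Ace, the angiotensin-converting enzyme that trims chemerin peptides, was at 20.5 ± 12.5 and 18.3 ± 10.8, and Ctsl, a lysosomal cysteine protease, at 9.72 ± 8.14 and 14.7 ± 8.33. Elane and Prtn3, neutrophil enzymes that cut prochemerin, had 9 and 12 reads in all. Of 12 protease inhibitors 6 were tested. Serpina3n, a secreted inhibitor of serine proteases, was at 11.1 ± 1.65 and 36.6 ± 15.5, with a log2 difference of 1.49 (standard error 0.51) that did not pass (adjusted p = 0.662 from limma). Its lowest DOX library, at 11.2, lay within the PBS range of 8.99 to 12.6. The granulocyte sums, in DOX mostly Ly6g, and the epithelial sums given above were also higher in each DOX library once PBS replicate 4 was left aside. The ribosomal share was higher in 4 of 5. The part of these sums and of this share in the Serpina3n value and in that of Cst3 below was not tested. Serpinh1, the collagen chaperone, was at 69.2 ± 19.7 and 41.1 ± 19.3, a log2 difference of -0.84 (adjusted p = 0.761 from limma). Serping1, the C1 inhibitor, was at 97.8 ± 31.8 and 104 ± 27.7, Serpinf1 at 51.1 ± 26.7 and 54.0 ± 13.7, and Serpinb6a at 12.3 ± 9.82 and 17.0 ± 11.2.

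Among other leukocyte attractants, 4 of 40 were tested and 9 were at 0 in all libraries. C3, the complement component that releases the anaphylatoxin C3a, was at 72.7 ± 24.8 normalized counts in PBS and 97.4 ± 34.1 in DOX. Cxcl1, an attractant of neutrophils, was at 66.9 ± 15.8 and 61.0 ± 23.9, Ccl2, an attractant of monocytes, at 19.7 ± 10.1 and 10.8 ± 8.03, and Cxcl16 at 9.97 ± 10.3 and 11.9 ± 10.3. Rarres2, at a mean of 120 over all libraries, was above each of these 4. Of 28 receptors of attractants 2 were tested, Csf1r (243 ± 42.5 and 233 ± 37.6) and Cxcr5 (224 ± 65.1 and 171 ± 42.9). Both are known as receptors of blood cells, and both rows lie over the last base of another gene on the other strand, Hmgxb3 and Bcl9l. They share that position with Lrrc61.

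Genes of retinoid metabolism and response were tested for 4 of 25. Dhrs3, a retinal reductase, was at 76.9 ± 38.0 normalized counts in PBS and 93.4 ± 24.9 in DOX, the receptor gene Rara at 11.3 ± 2.05 and 12.7 ± 7.78, and Tgm2, a transglutaminase that retinoids induce, at 29.7 ± 7.55 and 27.9 ± 12.6. Adipokine and adipogenic genes were tested for 3 of 22. Cebpd, which encodes a transcription factor of early adipogenesis, was at 215 ± 56.6 and 201 ± 19.7 and lies over the end of Spidr. Cebpb was at 36.9 ± 9.69 and 24.6 ± 13.5. Cd36, a fatty acid receptor, was at 40.1 ± 55.4 and 34.4 ± 17.8, and its PBS mean rests on PBS replicate 4 at 123 against 11.6 to 13.0 in the other 3. In all, 5 of the 23 tested list genes lay over the end of another gene on the other strand, against 889 of all 2604 tested genes. Beside Csf1r, Cxcr5 and Cebpd these were Ctsl and Tgm2.

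Of the 16 genes with a cystatin fold besides Rarres2, Cst3 alone was tested. It encodes cystatin C, a secreted inhibitor of cysteine proteases, and had 105 ± 20.3 normalized counts in the PBS group (SD, n = 4) and 188 ± 38.5 in the DOX group (SD, n = 5). Its PBS libraries ran from 83.3 to 126 and its DOX libraries from 138 to 233, so that the groups did not overlap. The log2 difference was 0.84 (standard error 0.27), which did not pass over all genes tested (adjusted p = 0.647 from limma). Rarres2, of the same fold, was at a like level in PBS (110) and overlapped between the groups.

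**Figure D5:**
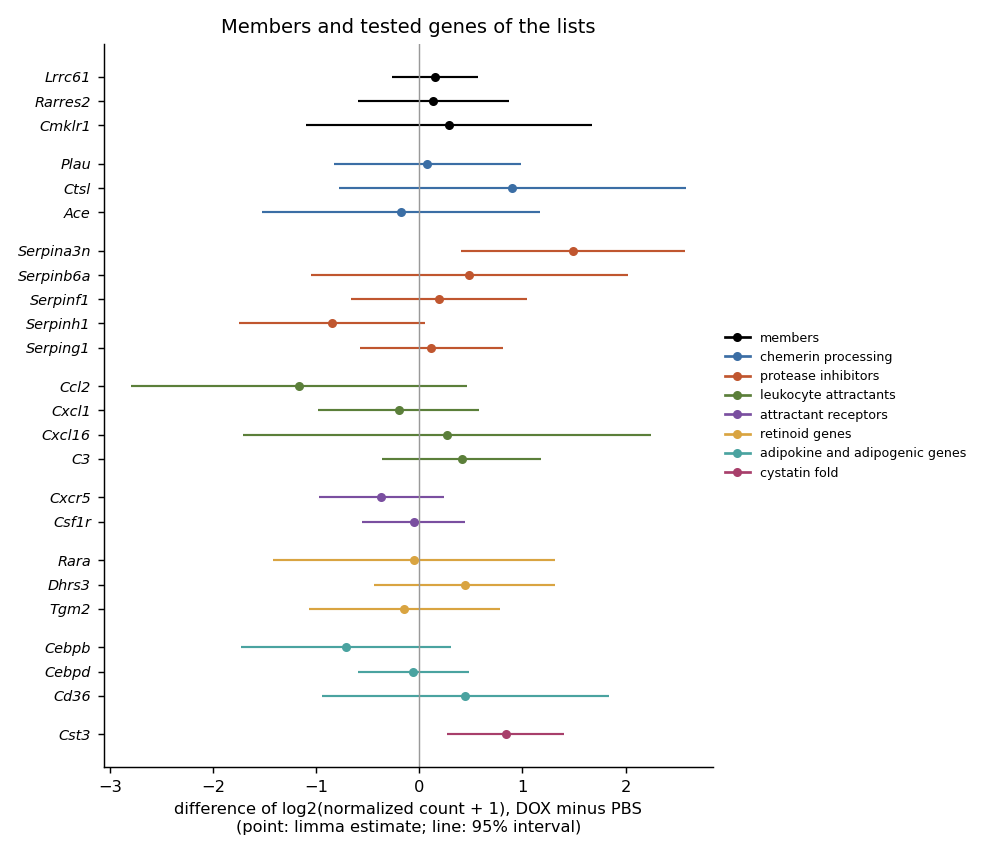
Log2 differences of DOX minus PBS with 95% intervals from limma for the 3 tested members and 21 of the 23 tested genes of the lists, colored by list. The intervals of Lrrc61, Rarres2 and Cmklr1 include 0, and those of Serpina3n and Cst3 lie above it before adjustment for the 2604 genes tested.

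The genes whose pattern over the 9 libraries was most like that of a member were listed by Pearson's r of the log2 values. For Lrrc61 they were Gm10095 (r 0.94), Efcab14 (0.92), Fstl1 (0.89), which encodes a secreted glycoprotein of fibroblasts, Gm5113 (0.87) and Ppp1cb (0.87), a subunit of protein phosphatase 1. Without PBS replicate 4, 1 of these 5 was still among the 5 highest, and with Spearman's rho in place of r 0 of the 5 were. For Rarres2 they were Tsnaxip1 (0.95), Gm17178 (0.90), Gm23134 (0.89), Rpl28 (0.88), a ribosomal protein gene, and Tmem243 (0.88). Their r without PBS replicate 4 was 0.87 to 0.96. Lrrc61 was not among the 5 genes most like Rarres2, nor Rarres2 among the 5 most like Lrrc61.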

How the data were processed

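Lung fibroblasts of 4 PBS-treated and 5 DOX-treated mice were profiled by MARS-seq, and samples were grouped by their labels. The authors mapped reads to mm10 with STAR, counted them per gene with HTSeq-count and a RefSeq annotation, and deposited normalized signal values in a table for each library (55421 lines, 55302 symbols, the 119 repeats summed here). The sources used here give neither versions, nor the strand setting, nor the handling of molecular tags. All deposited values were whole multiples of 1 step per library (tolerance 0.001), the reciprocal of DESeq2's median-of-ratios size factor, and reads were recovered from them. Depth was 432322 to 1285816 reads per library. Libraries of a group differed by more than sampling noise (chi-square per degree of freedom 8.51 to 41.4), and each was used as 1 replicate. The study counts them as mice.

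Groups were compared by two-sided limma-trend (limma 3.58.1, R 4.3.3) on log2(value + 1), Benjamini-Hochberg adjusted at 0.05, for the 2604 genes reaching 10 in 4 or more libraries. The pseudocount of 1 makes folds of low genes too small. Recovered reads were also analysed with edgeR 4.0.16, DESeq2 1.42.0 and limma-voom. Other alternatives were TMM scaling, library totals, pseudocounts, filters, replicates left out and the replicate number as a block.

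Members and lists were chosen with earlier results of these data known. The lists were written from textbook knowledge. Named genes were the members, Gpr1, up to 6 tested genes of each of 8 lists by mean, the 5 genes most like Lrrc61 and Rarres2, annotated genes within 100 kb and the 5 pairs with the highest covering row. Elane and Prtn3 were named after their values were seen. Of the tested list genes 2 are not reported here. Positions and sequences came from GENCODE M21 (mm10), which may differ from the authors' annotation. Python 3.11.15 with NumPy 2.4.6, pandas 2.3.3 and SciPy 1.17.1 was used.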

Additional observations from a re-analysis of the deposited data

Results flagged for a closer look

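In a group of 4 or 5 libraries, a library was singled out where its gap to the nearest other library took up more of the group's range than Dixon's 95% limit. Of 118 groups of values examined 15 were singled out, and no value of Rarres2, Lrrc61, Cmklr1 or Ccrl2 was among them. The limit would give about 1 in 20 for independent, normally distributed values. Marker sums and rows with libraries at 0 need not be such values. Where the other libraries are all at 0, any value above 0 is singled out. The count is therefore not a comparison with chance. Gpr1 stood out in DOX replicate 4 at 8.96 normalized counts, with the other DOX libraries at 0. In PBS replicate 4 the summed granulocyte markers were at 1122 (28.0 to 37.9 in the other PBS libraries), the summed pan-immune markers at 270 (7.39 to 15.1), the summed epithelial markers at 483 (15.8 to 36.6), Cd36 at 123 (11.6 to 13.0), Pecam1 at 10.5 (3.00 to 3.79) and Epcam at 5.67 (0 in the others). In DOX replicate 4 Epcam was at 3.73 (0 to 1.02), Efcab14, one of the genes most like Lrrc61, at 164 (17.4 to 57.2), and Tsnaxip1, the gene most like Rarres2, at 34.4 (3.87 to 12.3). In DOX replicate 2 CT010467.1 was at 295307 (46413 to 110641) and Gm42418, whose end it covers, at 1113 (387 to 592). Ccl2 was at 34.8 in PBS replicate 2 (13.9 to 16.2), Cebpd at 236 in DOX replicate 1 (189 to 198), and the summed macrophage markers at 305 in PBS replicate 3 (248.7 to 249.1).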

How the results depend on the processing

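Each member's difference changed sign under at least 1 alternative, and the largest shifts came with libraries left out. The Lrrc61 difference ranged from -0.02 to 0.25 over replicates left out, and it was below 0 only without PBS replicate 4. Rarres2 ranged from -0.08 to 0.38 over replicates left out, below 0 only without DOX replicate 4, and was 0.50 without PBS replicate 4 and DOX replicate 2 together. Cmklr1 ranged from -0.18 to 0.64, below 0 without PBS replicate 4, and was -0.44 without both libraries. Ccrl2 ranged from -0.36 to 0.38. No gene was called when any 1 replicate was left out (132 to 194 at an unadjusted p under 0.05) or under any other scaling, pseudocount or test. With no filter 3 of 17428 genes were called, 2 higher and 1 lower in DOX, none of them a member or list gene. The share of tested genes over a 3′ end was 41.7% for the last 300 bases and 30.5% for basic transcripts only, which was chosen after seeing the data. PBS and DOX libraries with the same replicate number deviated together only weakly (correlations 0.066, 0.037, 0.021 and 0.062). Of the 4 PBS libraries 3 correlated best with their own number, and a pairing was not tested. With the replicate block, which leaves out DOX replicate 5, 0 genes were called and the differences were 0.15 for Lrrc61, 0.09 for Rarres2, 0.36 for Cmklr1 and 0.12 for Ccrl2. Reads were few for Cmklr1 (5 to 24 a library) and Ccrl2 (0 to 4), and the part of depth or of the strand setting in this was not tested.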
